A study of Mus musculus with 22 samples.

Results

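Liver transcripts were compared between mice lacking the glucagon gene (Gcg KO) and wild-type (WT) mice while both received glucagon at the higher of the doses used, 150 µg/d. All libraries with that treatment were taken: 4 WT libraries (numbered 15 to 18 in their titles) and 4 Gcg KO libraries (19 to 22), 8 of the 22 in the series. The remaining libraries, used here only for comparison, came from each genotype without infusion (3 each) and with glucagon at 30 µg/d (4 each). All 8 libraries thus came from mice given the hormone, and the genotypes differed in whether they could also make their own. The labels used here give no strain, sex, age, infusion time or route, no group infused without hormone, and do not say whether the libraries of a group are different mice; the p-values refer to the spread between the libraries as deposited, which may be technical.

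The values are RPKM, the reads of a gene per kilobase of transcript, scaled to the reads of the library. Steps between low values gave an estimated 11.4 to 16.9 M reads for the 8 libraries. Genes known for hepatocyte identity summed to 46000 to 49300 RPKM in WT and 40600 to 52300 RPKM in Gcg KO libraries, with none of the 18 at 0. Gcg itself (chromosome 2, 62474530 to 62483653, GRCm38) was listed at 0 in all 8 libraries, so the target of the deletion gives no check of the genotypes here. Spearman's rho across genes was 0.969 to 0.984 between libraries of one genotype and 0.965 to 0.988 between libraries of different genotypes. On the first principal component of the 8 libraries (34.1% of the variance) library 17 (WT, −20) and library 19 (Gcg KO, −26.7) lay far from the others, which ranged from −6.76 to 15. For the counts of called genes and for the metabolic and acute phase lists, values without these libraries are given below.

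Glucagon is made by pancreatic alpha cells and acts on hepatocytes through its receptor Gcgr, which raises cyclic AMP and activates protein kinase A. The kinase phosphorylates CREB, a transcription factor that binds the cyclic AMP response element (CRE) in target promoters. In liver the hormone is known for raising the enzymes of amino acid breakdown, urea synthesis and glucose production, many of which are periportal, that is, highest in hepatocytes near the portal vein.

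Under 150 µg/d few genes differed between the genotypes beyond the spread of the libraries. Of 11590 genes tested, 3 were lower in Gcg KO than in WT liver and none was higher at an adjusted p under 0.05 (limma on log2(RPKM + 1), Benjamini-Hochberg adjustment over all genes tested), 0.0259% of the genes. The 3 were Mmd2, Zap70 and Robo1. At an unadjusted p under 0.05 there were 231 genes (1.99%), 138 higher and 93 lower. That share is below the 0.05 expected at this threshold where no gene differs, so the count shows no excess. Robo1 encodes a receptor for the Slit guidance proteins, Zap70 a tyrosine kinase of T cell receptor signalling, and Mmd2 a membrane protein of the progestin and adipoQ receptor family. Their promoters are shown because these are the genes that differed and because CREB is the factor at the end of the glucagon pathway: 250 bases before an annotated start site, from RefSeq on GRCm38.p6, in lower case with any CRE in capitals. Each window precedes a start that the table gives, which need not be the gene's outermost one: those of Robo1 (1 start) and Mmd2 lie wholly and partly inside the gene's full span, given with its values further on. The window of Robo1 is chr16:72662899-72663148 (plus strand), that of Zap70 chr1:36761548-36761797 (plus strand, the first of its 3 starts) and that of Mmd2 chr5:142608753-142609002 (minus strand).
Robo1: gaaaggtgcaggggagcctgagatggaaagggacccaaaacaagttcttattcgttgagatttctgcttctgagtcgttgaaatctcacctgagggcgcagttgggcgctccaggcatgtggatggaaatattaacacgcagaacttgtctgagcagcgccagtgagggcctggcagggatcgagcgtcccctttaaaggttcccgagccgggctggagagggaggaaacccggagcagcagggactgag
Zap70: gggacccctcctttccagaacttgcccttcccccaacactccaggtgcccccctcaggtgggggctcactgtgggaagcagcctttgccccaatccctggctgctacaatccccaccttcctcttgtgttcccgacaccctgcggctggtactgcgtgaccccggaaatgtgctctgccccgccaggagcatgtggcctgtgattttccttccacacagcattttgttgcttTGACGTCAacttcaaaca
Mmd2: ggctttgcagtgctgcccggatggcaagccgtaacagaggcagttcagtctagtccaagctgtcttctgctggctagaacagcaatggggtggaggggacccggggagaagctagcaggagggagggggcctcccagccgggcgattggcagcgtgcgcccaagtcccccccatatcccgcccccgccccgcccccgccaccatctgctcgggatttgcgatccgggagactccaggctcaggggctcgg
The full palindromic element TGACGTCA was found once, in the Zap70 window close to its 3′ end, and in neither of the windows of the other 2 Zap70 starts. It was present in 508 of 32851 mouse promoter windows of the same length (1.55%). Neither the full element nor its short form, TGACG or CGTCA on either strand, was in the Robo1 or Mmd2 window; the short form was in 17.8% of all windows. These matches describe the letters only, and which start the liver uses was not measured.

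Mmd2 (chromosome 5, 142563480 to 142608936) stood at 15.9, 12.3, 15.6 and 16.2 RPKM in WT libraries 15 to 18, and at 1.33, 3.16, 2.02 and 8.47 RPKM in Gcg KO libraries 19 to 22. The groups did not overlap, and library 22 was the Gcg KO library nearest to WT. The means were 15 ± 1.82 and 3.75 ± 3.24 RPKM (SD, n = 4 each), a log2 fold change of −1.97 ± 0.29 (SE) with a 95% interval of −2.58 to −1.35 (limma adjusted p = 0.0112). Fold changes throughout are differences of log2(RPKM + 1), which understate ratios of low genes.

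Zap70 (chromosome 1, 36761798 to 36782821) stood at 8.27, 8.47, 6.22 and 7.85 RPKM in the WT libraries and at 1.76, 3.53, 2.62 and 3.36 RPKM in the Gcg KO libraries. Each WT library was above each Gcg KO library, with means of 7.70 ± 1.02 and 2.82 ± 0.808 RPKM (SD, n = 4 each). The log2 fold change was −1.21 ± 0.19 (SE; 95% interval −1.61 to −0.81; limma adjusted p = 0.0175). Defining T cell genes were far lower than Zap70 in the same libraries: Cd3e had 0.0495 to 0.550 RPKM in WT and 0 to 0.245 in Gcg KO, and Cd8a 0.0857 to 0.152 and 0.0527 to 0.155. The 15 lymphocyte markers in the table together summed to 4.60 to 6.61 RPKM in WT and 3.36 to 6.48 in Gcg KO libraries, and of the 4 that were tested (Cd4 and the B lineage genes Cd79a, Cd79b and Jchain) none passed. Nkg7, a gene of cytotoxic lymphocytes that was too low to be tested, had 0.35 to 0.777 RPKM in WT and 0.201 to 0.333 in Gcg KO libraries, without overlap. The part of lymphocytes in the difference of Zap70 was not tested.

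Robo1 (chromosome 16, 72027518 to 73047491) was measured at 3.24, 3.23, 2.73 and 2.06 RPKM in WT and at 0.669, 0.983, 0.921 and 0.783 RPKM in Gcg KO libraries. The Gcg KO libraries lay close together, all below the lowest WT library. Means were 2.82 ± 0.556 and 0.839 ± 0.141 RPKM (SD, n = 4 each), and the log2 fold change was −1.04 ± 0.15 (SE; 95% interval −1.36 to −0.73; limma adjusted p = 0.0112). The annotation places a pseudogene on the opposite strand within both Robo1 and Zap70, and whether the counting used strand is not known.

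The same genes were lower in Gcg KO liver in the other comparisons of the genotypes, whose group means hold none of these 8 libraries but whose spread was estimated over all 22. Without infusion 179 genes (1.54%) were called and at 30 µg/d 38 (0.328%), and Mmd2, Zap70 and Robo1 were the genes called at all 3 doses. When each of these doses was fitted on its own libraries alone (chosen after the data were seen), the limma adjusted p without infusion was 0.0119 for Mmd2, 0.0235 for Zap70 and 0.0455 for Robo1, with 124 genes called from 6 libraries. At 30 µg/d it was 0.0171 for Mmd2, 0.0303 for Zap70 and 0.0608 for Robo1, which did not pass, with 12 genes called from 8 libraries. Mmd2 averaged 2.98 ± 0.947 RPKM in WT and 0.0641 ± 0.0841 in Gcg KO liver without infusion (n = 3 each), and 3.27 ± 1.13 and 0.125 ± 0.107 RPKM at 30 µg/d (n = 4 each). Its level was therefore highest at 150 µg/d in both genotypes, and all 4 Gcg KO libraries at that dose lay above every other Gcg KO library. Against uninfused liver of the same genotype, Mmd2 at 150 µg/d was higher by 2.03 in WT (limma adjusted p = 0.0137) and by 1.94 in Gcg KO liver (adjusted p = 0.00373). These comparisons share the 150 µg/d libraries with the one between genotypes and called 34 genes (0.293%) and 315 genes (2.72%). The rises are near-equal only on the log2(RPKM + 1) scale. Mean Mmd2 went from 2.98 to 15 RPKM in WT and from 0.0641 to 3.75 RPKM in Gcg KO, a larger ratio in Gcg KO.

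The gap between genotypes in log2(RPKM + 1) was −1.88, −1.89 and −1.97 for Mmd2 at 0, 30 and 150 µg/d. For Zap70 it was −1.77, −1.39 and −1.21, and for Robo1 −1.14, −0.98 and −1.04. The gap at 150 µg/d minus that without infusion was −0.09 for Mmd2 (95% interval −1.02 to 0.85; limma adjusted p = 0.969), 0.56 for Zap70 (−0.05 to 1.17; 0.522) and 0.10 for Robo1 (−0.39 to 0.58; 0.92). The intervals leave room for a change of the gap in each gene. For Mmd2 the near-equal gaps are not near-equal ratios. Its uninfused Gcg KO libraries had 0, 0.033 and 0.159 RPKM, where the 1 added to RPKM limits the gap. Zap70 averaged 0.966 ± 0.627 RPKM in uninfused Gcg KO liver (n = 3) and was higher by 0.98 at 150 µg/d (adjusted p = 0.018), against 0.41 in WT (adjusted p = 0.44).

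The calls at 150 µg/d depended on single libraries, while their direction did not. Without library 15, 16, 19 or 21 no gene passed: the smallest limma adjusted p was 0.0676, 0.0551, 0.057 and 0.0575, with 189, 270, 264 and 273 genes at an unadjusted p under 0.05. In a fit to the 8 libraries alone, in which the other 14 no longer inform the spread, none passed either (smallest adjusted p = 0.104, 253 genes unadjusted). Across these and the other settings tried the log2 fold change stayed between −2.37 and −1.68 for Mmd2, −1.46 and −1.06 for Zap70 and −1.63 and −0.99 for Robo1.

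**Figure D1:**
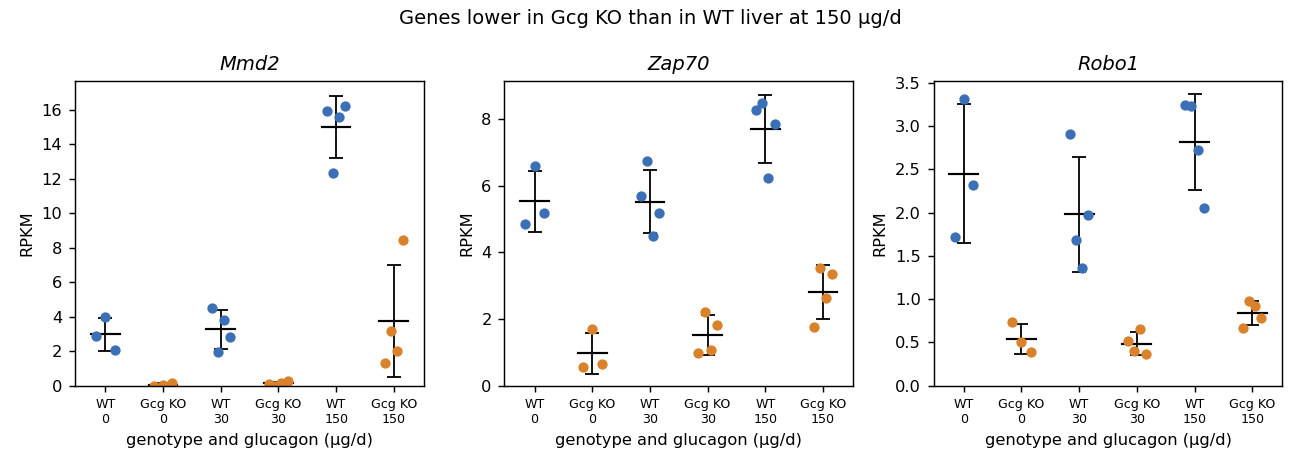
RPKM (vertical axis, linear, from 0) of Mmd2, Zap70 and Robo1 in every library by genotype and glucagon dose in µg/d; points are libraries, and bars the mean and SD (n = 3 without infusion, n = 4 otherwise). At 150 µg/d all 4 Gcg KO points lie below all 4 WT points for each gene, and Mmd2 is at 12.3 to 16.2 RPKM in WT against 1.33 to 8.47 in Gcg KO.

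The scale of the genotype difference was smaller at 150 µg/d than at the other doses. The median absolute log2 fold change over the 11590 genes was 0.0659 at 150 µg/d, 0.104 at 30 µg/d and 0.139 without infusion, and the 95th percentile 0.281, 0.454 and 0.607. The median half-width of the 95% interval was 0.24 at 150 and at 30 µg/d and 0.278 without infusion. At 150 µg/d the interval lay within a doubling or halving of RPKM + 1 for 11137 genes (96.1%). A difference of at least 1 on the log2 scale was measured for 26 genes at 150 µg/d, 103 at 30 µg/d and 206 without infusion. Groups did not overlap for 90 genes higher (0.777%) and 82 genes lower (0.708%) in Gcg KO at 150 µg/d, 1.48% in all, and for 733 genes (6.32%) at 30 µg/d, with 4 libraries a group in both. Orderings unrelated to genotype also separate 4 from 4 libraries in some genes, and the 1.48% was not tested against that share. Lack of overlap alone, as given for single genes below, therefore does not mark a difference between the genotypes.

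Genes that differed without infusion were followed into the 150 µg/d libraries. Their levels at 150 µg/d are not part of the uninfused difference, but the spread of these libraries enters the fit that called the genes. Among the 92 genes called higher (0.794%) in uninfused Gcg KO liver the median log2 fold change was 0.567 there, 0.156 at 30 µg/d and 0.0143 at 150 µg/d. Among the 87 called lower (0.751%) it was −0.796, −0.262 and −0.07. Since these genes were picked for a large uninfused gap, the first value of each series is a description. Of the 179, 113 had the same sign at 150 µg/d and 66 the opposite sign, beside 5857 and 5733 of all genes tested, and 3 were called again.

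A test of the change in gap itself, gene by gene, called none of the 11590 genes at 150 µg/d against no infusion (0% by limma; 1187 genes, 10.2%, at an unadjusted p under 0.05), and none against 30 µg/d (0%; 586 genes, 5.06%). The smallest adjusted p of the former was 0.108, shared by Oat, Ebp and Slc25a48. Ebp, an isomerase of cholesterol synthesis, had a gap of −0.81 without infusion and 0.11 at 150 µg/d, and Slc25a48, a mitochondrial carrier, −1.15 and −0.10. With weights for each library the first test called 66 genes, so this count rests on how libraries are weighted.

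**Figure D2:**
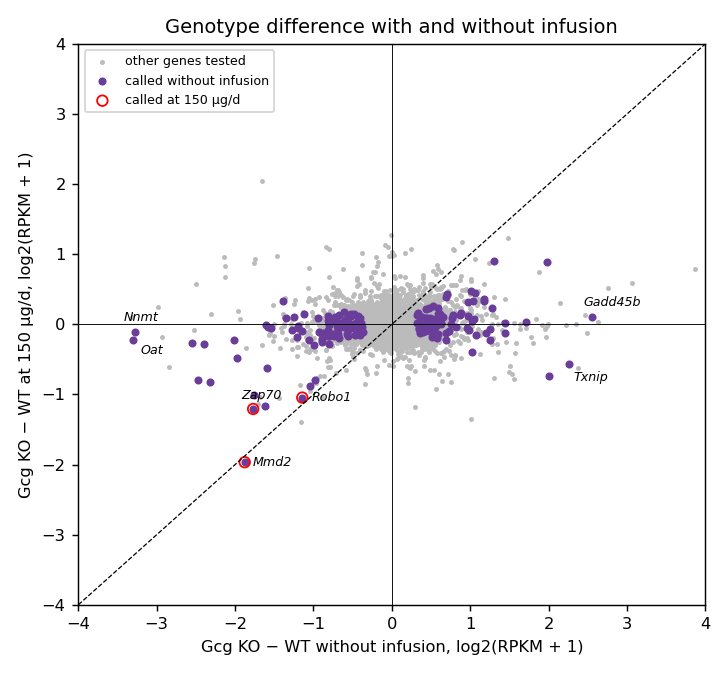
Difference between genotypes (Gcg KO minus WT, log2(RPKM + 1)) without infusion, horizontal, against that at 150 µg/d, vertical; each of the 11590 points is a gene, filled purple where called without infusion and ringed red where called at 150 µg/d, and the dashed line marks equal differences. On this scale, which understates ratios of low genes, Mmd2 and Robo1 lie near the dashed line and Zap70 between it and 0. Oat and Nnmt lie near 0 on the vertical axis (−0.23 and −0.11).

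The enzymes of amino acid breakdown had no gene called at 150 µg/d, beside 3 of 11590 genes tested (0.0259%). At so low a share, a list of this size without a call is near the background. Of 70 such genes tested, 22 had a higher and 48 a lower mean of log2(RPKM + 1) in Gcg KO liver. The median log2 fold change was −0.0274, against −0.00824 over all genes tested. Without infusion the median was −0.332 and 10 were called lower, beside 0.751% of all genes tested. Oat, the ornithine aminotransferase (chromosome 7, 132557475 to 132576398), stood at 1080, 950, 350 and 824 RPKM in WT and 245, 910, 822 and 855 RPKM in Gcg KO libraries. The groups overlapped, with library 17 lowest in WT and library 19 in Gcg KO. The log2 fold change was −0.23 (95% interval −0.99 to 0.54; limma adjusted p = 1), where the uninfused gap had been −3.30. Against uninfused liver of the same genotype Oat was higher by 3.21 in Gcg KO (adjusted p = 0.000715) and by 0.14 in WT (adjusted p = 0.935); both share the 150 µg/d libraries with the comparison between genotypes.

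Sds, the serine dehydratase (chromosome 5, 120476547 to 120483932), had 338, 223, 90.6 and 251 RPKM in WT and 52.9, 243, 269 and 235 RPKM in Gcg KO libraries. Gls2, the liver glutaminase (chromosome 10, 128194635 to 128210004), had 264, 233, 110 and 211 RPKM in WT and 70, 210, 213 and 207 RPKM in Gcg KO. In both genes 3 Gcg KO libraries sat among or beside the WT libraries, and library 19 lay apart below them. Their log2 fold changes were −0.27 (95% interval −1.39 to 0.86) for Sds and −0.28 (−1.06 to 0.50) for Gls2, against −2.54 and −2.39 without infusion. Got1, the cytosolic aspartate aminotransferase, had the lowest fold change of the list, −0.60 with an interval of −2.05 to 0.85, from 374, 253, 58.8 and 278 RPKM in WT and 23.8, 189, 262 and 240 RPKM in Gcg KO. Nnmt, which methylates nicotinamide (chromosome 9, 48538002 to 48607655), had 327, 307, 175 and 350 RPKM in WT and 141, 288, 315 and 355 RPKM in Gcg KO, a log2 fold change of −0.11 (−1.17 to 0.95) against −3.27 without infusion. The lower ends of these 5 intervals run from −0.99 (Oat) to −2.05 (Got1), and differences up to those sizes are within the error of these libraries.

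Tat, the tyrosine aminotransferase, had 1120, 965, 379 and 1360 RPKM in WT and 577, 1210, 1260 and 554 RPKM in Gcg KO libraries (log2 fold change −0.05, 95% interval −0.85 to 0.74). Ass1, the argininosuccinate synthase of the urea cycle, had 2810, 2770, 1240 and 2630 RPKM in WT and 877, 2840, 2850 and 2250 RPKM in Gcg KO (−0.17, −0.90 to 0.56). All 9 urea cycle genes were tested and none passed, beside 0.0259% of all genes tested. Of the 9, 1 had a higher and 8 a lower mean, with a median of −0.0986 at 150 µg/d and −0.576 without infusion. Cps1, the carbamoyl phosphate synthetase that feeds the cycle, averaged 1160 RPKM in WT and 1120 in Gcg KO. In glucose production Pck1, the phosphoenolpyruvate carboxykinase, had 2220, 1560, 764 and 1930 RPKM in WT and 1320, 1540, 2140 and 1340 RPKM in Gcg KO (0.05, −0.60 to 0.70). G6pc, the glucose-6-phosphatase, averaged 204 ± 133 and 120 ± 62.7 RPKM (SD, n = 4 each; −0.53, −1.78 to 0.73).

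Library 17 of WT and library 19 of Gcg KO were low together in many of these enzymes. Among the 70 genes of amino acid breakdown, library 17 was the lowest of its group in 51 (72.9%, against 38.8% of all genes tested) and library 19 in 36 (51.4%, against 43.6%). Both were lowest in 29 of the 70 (41.4%) and in 8 of the 9 urea cycle genes (88.9%), against 22.8% of all genes tested. Acute phase genes, which the liver raises in inflammation, were highest of their group in library 17 for 21 of 29 (72.4%, against 19.2% of all genes tested). In library 19 they were for 18 of 29 (62.1%, against 21.2%). The part of this pattern in the comparison between genotypes cannot be told apart from the loss of libraries. Both were left out of the fit, a choice made after the data were seen. Mmd2, Zap70 and Robo1 then had log2 fold changes of −1.68, −1.15 and −1.01, each with a limma adjusted p of 0.155, and no gene passed (333 at an unadjusted p under 0.05). Leaving out library 19 alone turned the sign of Oat (0.22), Sds (0.29), Gls2 (0.11), Got1 (0.20), Nnmt (0.18), Ass1 (0.23) and Tat (0.12). Leaving out library 17 alone moved the same genes the other way, to −0.59, −0.65, −0.55, −1.18, −0.33, −0.45 and −0.45 in that order, and G6pc to −1.21. Without both the order gave −0.13, −0.10, −0.16, −0.38, −0.04, −0.06 and −0.27, with −1.01 for G6pc (95% interval −2.17 to 0.15), and none passed in these fits.

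The lists moved with these libraries too. The median of the amino acid genes was −0.111 without library 17, 0.00911 without library 19 and −0.0761 without both, with 19 of 70 higher in the last. For the urea cycle it was −0.286, 0.169 and −0.0528, and for acute phase genes 0.548, 0.0204 and 0.337, with 23 of 29 higher without both. Cholesterol synthesis had 0.416, 0.329 and 0.425, stellate and fibroblast markers 0.18, 0.224 and 0.187, and Kupffer cell markers −0.145, −0.198 and −0.149. The medians of the urea cycle and amino acid genes thus turned positive without library 19 alone and were negative in the other fits. The same held for gluconeogenesis (0.0613 without library 19) and periportal genes (0.112).

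**Figure D3:**
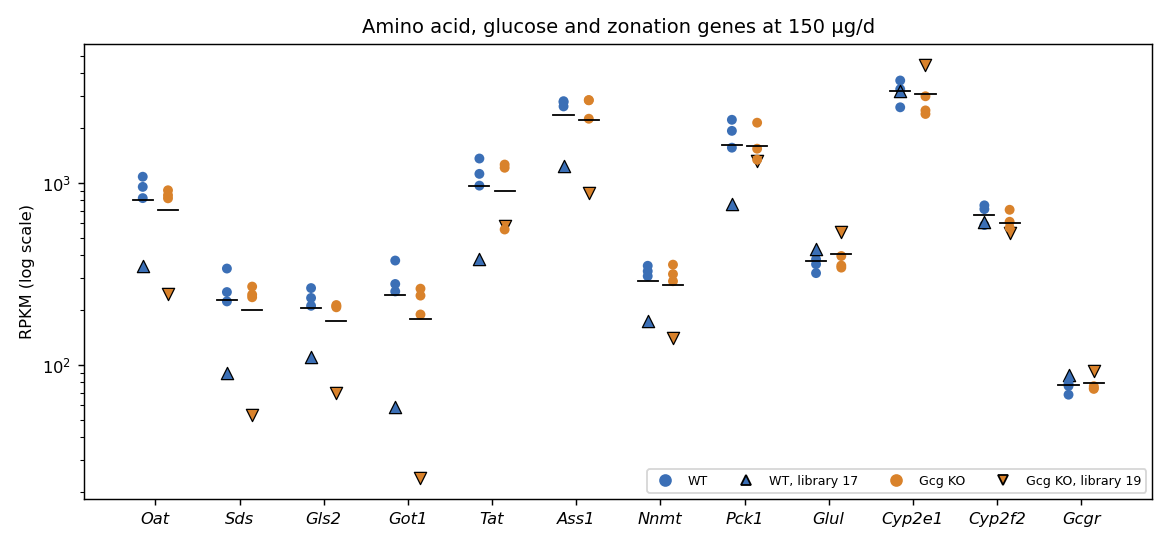
RPKM (logarithmic axis) of 12 genes of amino acid, glucose and zonal metabolism at 150 µg/d in the 4 WT and 4 Gcg KO libraries; points are libraries, triangles mark library 17 (WT) and library 19 (Gcg KO), and bars are group means. Apart from the triangles the ranges of the genotypes overlap, for example Gls2 at 211 to 264 RPKM in WT and 207 to 213 RPKM in Gcg KO. Some other points lie apart, such as Tat at 554 RPKM in Gcg KO library 22 against 965 to 1360 RPKM in WT.

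No gene of the glucagon pathway upstream of these enzymes passed the test, which is near the 0.0259% of all genes tested that did. Gcgr, the receptor, averaged 77.9 ± 7.87 RPKM in WT and 79.2 ± 8.79 in Gcg KO libraries (SD, n = 4 each), with a log2 fold change of 0.02 and an interval of −0.18 to 0.22. Of 25 tested genes of the receptor and cyclic AMP pathway none passed, 9 were higher and 16 lower, and the median was −0.0296. Gnas, the stimulatory G protein subunit, averaged 206 and 212 RPKM, and Prkaca, a catalytic subunit of protein kinase A, 21.3 and 22.2. Pde4b, a phosphodiesterase that degrades cyclic AMP, averaged 6.08 ± 3.29 RPKM in WT and 2.46 ± 1.77 in Gcg KO. It did not pass at 150 µg/d (−1.05, interval −1.83 to −0.28; limma unadjusted p = 0.0104, adjusted p = 1), and its fold change was −1.44 without infusion and −1.30 at 30 µg/d. Nr4a1, an immediate target of cyclic AMP signalling, ranged from 0.595 to 33.8 RPKM in WT and from 0.725 to 15.1 in Gcg KO, so that its fold change of −1.13 had an interval of −2.97 to 0.71.

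Zonal landmarks did not pass either, again near the 0.0259% of all genes tested that passed. The pericentral genes Glul, glutamine synthetase, and Cyp2e1, a cytochrome P450, averaged 372 ± 47.3 against 407 ± 91.4 RPKM and 3180 ± 438 against 3080 ± 954 RPKM (WT against Gcg KO, SD, n = 4 each). Axin2, a target of Wnt signalling, averaged 1.63 against 1.52 RPKM, and Cyp2f2, a periportal cytochrome, 666 against 605 RPKM. Their log2 fold changes were 0.11 (95% interval −0.34 to 0.57), −0.08 (−0.51 to 0.35), −0.06 (−0.46 to 0.34) and −0.14 (−0.47 to 0.19) in that order. Of 27 periportal genes 7 were higher and 20 lower with a median of −0.0901 (−0.618 without infusion), and of 31 pericentral genes 8 were higher and 23 lower with a median of −0.0922. Without libraries 17 and 19 these medians were −0.0576 and −0.174. The periportal median was −0.2 without library 17 alone and turned to 0.112 without library 19 alone, with 16 genes higher and 11 lower. The pericentral median was −0.0809 and −0.124 in these fits. The mean log2 level of the periportal genes minus that of the pericentral genes was 1.63, 1.77, 1.47 and 2.17 in WT and 1.13, 1.82, 2.0 and 2.12 in Gcg KO libraries, groups that overlapped with and without libraries 17 and 19, and library 19 was the lowest.

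Apoa4, an apolipoprotein of triglyceride-rich particles that is on the periportal list, lay the other way. It had 25.9, 35.0, 33.0 and 41.8 RPKM in WT and 70.2, 64.2, 61.8 and 56.7 RPKM in Gcg KO libraries. The groups did not overlap, but the log2 fold change of 0.89 (95% interval 0.10 to 1.69) did not pass (limma adjusted p = 1). Txnip, which responds to glucose and insulin, averaged 30.2 ± 9.99 RPKM in WT and 20.1 ± 7.37 in Gcg KO at 150 µg/d (−0.56, −1.33 to 0.21), where the uninfused gap had been 2.27. Asns, the asparagine synthetase, averaged 12.6 ± 6.40 and 6.61 ± 2.99 RPKM (−0.83, −1.72 to 0.07), and had been called lower without infusion (−2.32) and at 30 µg/d (−2.61, adjusted p = 0.00986).

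Next after the called genes by its p was Lncbate1, which was lower in Gcg KO liver without overlap and did not pass. Lncbate1, a transcript described in brown fat that lies on the opposite strand within Zfhx3 (chromosome 8, 108553252 to 108584677), had 2.56, 2.23, 2.12 and 1.08 RPKM in WT and 0.548, 0.604, 0.378 and 0.919 RPKM in Gcg KO libraries. Its log2 fold change was −0.88 (95% interval −1.20 to −0.55) with a limma adjusted p of 0.0556; it was called without infusion (−1.05, 0.0113) and at 30 µg/d (−0.76, 0.0421). Without library 18 or library 22 it passed at 150 µg/d (adjusted p = 0.00429 and 0.0409, with 3 and 4 genes called in all), as it did in a fit without uninfused WT library 2 (4 genes called). Reads of Zfhx3 and Lncbate1 cannot be told apart where the counting ignored strand.

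Meg3 and Rian are maternally expressed noncoding RNAs of one imprinted region of chromosome 12. Meg3 (109540996 to 109571729) had 8.91, 3.75, 8.96 and 4.03 RPKM in WT and 1.40, 1.53, 2.99 and 2.84 RPKM in Gcg KO libraries. Rian (109603945 to 109661716) had 2.59, 1.45, 3.04 and 1.28 RPKM in WT and 0.319, 0.503, 1.23 and 1.18 RPKM in Gcg KO. In both genes libraries 15 and 17 were the higher WT pair and libraries 21 and 22 the higher Gcg KO pair, and the groups did not overlap. The log2 fold changes were −1.17 (95% interval −1.78 to −0.55; limma adjusted p = 0.962) and −0.77 (−1.22 to −0.31; adjusted p = 1). At 30 µg/d both were called lower in Gcg KO (Meg3 −2.03, adjusted p = 0.00529; Rian −1.29, adjusted p = 0.011), and without infusion Meg3 was (−1.62, 0.0283) and Rian was not (−0.95, 0.0607). Of other genes of the region, taken after their values were seen, Dlk1 and Rtl1 were at most 0.0335 RPKM and Mirg at most 0.338 RPKM in the 8 libraries.

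Of protein-coding genes that were lower without overlap, Dpy19l3, a mannosyltransferase, averaged 4.14 RPKM in WT and 1.95 in Gcg KO (−0.79, limma adjusted p = 0.908; called without infusion at −0.98, adjusted p = 0.0356), and Tspyl4 1.58 and 0.63 RPKM (−0.65, adjusted p = 0.908). Higher without overlap was Arhgap10, a GTPase activator, at 0.702 to 1.43 RPKM in WT and 1.49 to 2.04 in Gcg KO (0.53, adjusted p = 0.59; 0.57 at 30 µg/d, adjusted p = 0.0421, where it was called). Nrp2, a co-receptor for semaphorins and vascular growth factors, averaged 2.93 ± 0.269 RPKM in WT and 4.47 ± 1.40 in Gcg KO (0.45, adjusted p = 1). It was called higher in Gcg KO without infusion (1.06, adjusted p = 0.00531) and at 30 µg/d (0.65, adjusted p = 0.0471). The change of its gap from no infusion was −0.61 (95% interval −1.05 to −0.17; adjusted p = 0.341).

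Cytoglobin (Cygb), a globin of hepatic stellate cells, desmin (Des), their intermediate filament, and Col6a1, a collagen chain, were also higher without overlap, and none passed. Cygb ranged from 2.02 to 3.54 RPKM in WT and 3.57 to 4.55 in Gcg KO, Col6a1 from 2.02 to 2.83 and 3.24 to 3.79, and Des from 0.687 to 1.04 and 1.32 to 3.51. Of 17 stellate and fibroblast markers tested all 17 had a higher mean in Gcg KO libraries, beside 5397 of all 11590 genes. Their median log2 fold change was 0.168, and 0.218 without infusion and 0.337 at 30 µg/d. Members of such a list can vary together from library to library, so the count of 17 is no measure of error. Acta2 (smooth muscle actin) averaged 1.11 and 2.17 RPKM, Tagln 2.57 and 4.34, and Col1a2 3.26 and 4.60, each with an adjusted p of 1. The mean log2 level of the list was 2.49 to 2.68 in WT and 2.73 to 2.91 in Gcg KO libraries, and its summed level 208 to 234 and 234 to 257 RPKM. The list was among 48 compared, and its separation was not tested. In bulk liver more cells of a type and more RNA per cell cannot be told apart. Des was highest in library 21 (3.51 RPKM), in which skeletal muscle genes, chosen after their values were seen, also stood out: Acta1 at 35.2, Tnnt3 at 24.3 and Tnnc2 at 16.7 RPKM, against at most 0.176 RPKM in the other 7 libraries. Without library 21 the log2 fold change of Des was 0.34, against 0.56 with it, and the Gcg KO libraries still lay at 1.32 to 1.55 RPKM, above WT. The range of the list's mean in Gcg KO, set by libraries 20 and 22, did not involve library 21.

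Markers of Kupffer cells, the macrophages of the liver, had a negative list median at 150 µg/d and a positive one at the other doses. The test of the change in gap from no infusion called none of the 15, and 10 had an unadjusted p under 0.05, beside 10.2% of all genes. All 15 had a lower mean of log2(RPKM + 1) in Gcg KO libraries, and none passed. The median log2 fold change was −0.197 (0.478 without infusion, 0.144 at 30 µg/d). Mean RPKM was not lower for Cd68 (9.04 in WT, 9.06 in Gcg KO) and Cd163 (6.99 and 7.1). Without library 17, library 19 or both, 13 of the 15 were lower. Clec4f averaged 51.5 and 43.9 RPKM, Vsig4 24.9 and 20.7, and Csf1r, the receptor for macrophage growth factor, 22.4 and 16.9. The library means of the list overlapped, at 4.07 to 4.54 in WT and 3.80 to 4.55 in Gcg KO. Endothelial markers had a median of −0.0368, with 8 of 19 higher and summed levels of 190 to 214 and 188 to 210 RPKM. Their median too was positive without infusion (0.357) and at 30 µg/d (0.0948), and 5 were called higher without infusion, beside 0.794% of all genes. The change in gap from no infusion had an unadjusted p under 0.05 in 9 of the 19.

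Cholesterol synthesis had the highest median of the lists, 0.251, with 23 of 24 genes higher in Gcg KO and none called. Hmgcs1, which makes the HMG-CoA of the pathway, averaged 87.0 and 119 RPKM, and Sqle, the squalene epoxidase, 30.5 ± 17.5 and 44.3 ± 9.04 RPKM (0.68, 95% interval −0.13 to 1.5). The exception was Sc5d at 168 and 173 RPKM, whose log2 mean was lower by 0.04. The list's library means overlapped, at 4.92 to 5.83 in WT and 5.36 to 6.04 in Gcg KO, as did those of acute phase genes (28 of 29 higher, median 0.195, 7.14 to 8.83 and 6.80 to 8.90) and of the mitochondrially encoded genes (13 of 13 lower, median −0.142, 11.52 to 12.46 and 11.75 to 12.18). In such lists the members vary together from library to library, so a count of members on one side is no measure of error.

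**Figure D4:**
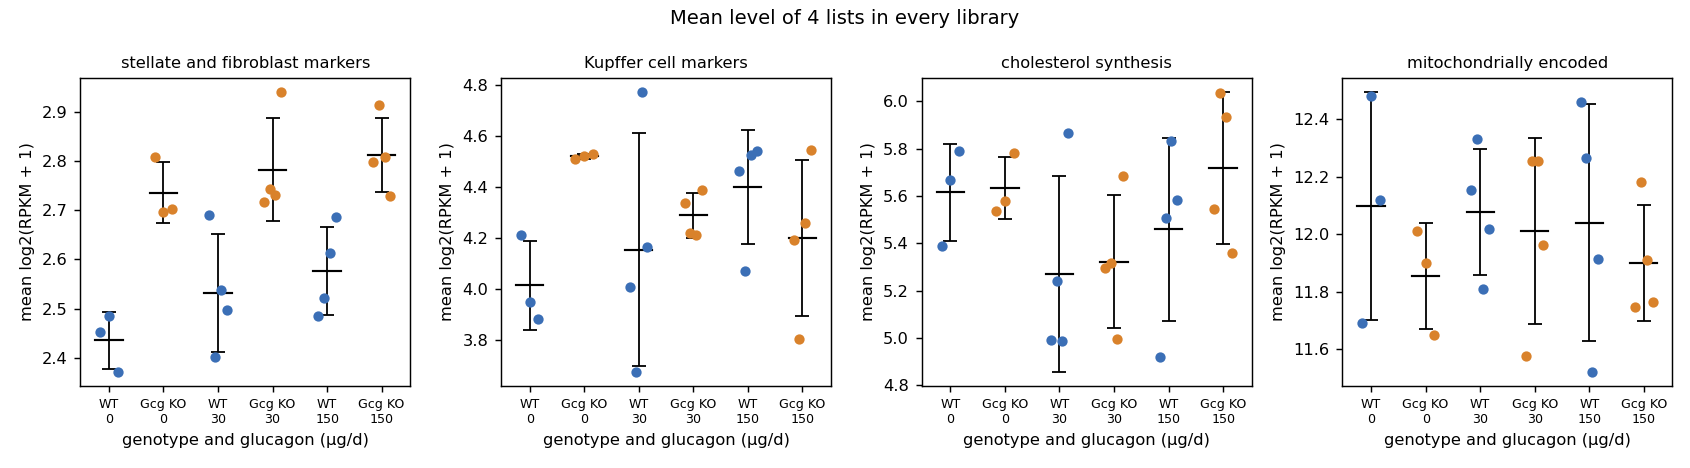
Mean log2(RPKM + 1) over the listed genes (vertical axes, not from 0) in every library by genotype and glucagon dose in µg/d, for 4 lists; points are libraries, and bars the mean and SD (n = 3 without infusion, n = 4 otherwise). At 150 µg/d the stellate and fibroblast list separates the genotypes (2.49 to 2.68 in WT, 2.73 to 2.91 in Gcg KO), and the other 3 lists overlap. The 4 lists are among 48 compared, and the separation was not tested.

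Across 48 lists with 916 tested genes no listed gene was called at 150 µg/d, which is near the share over all genes (3 of 11590, 0.0259%). List medians ran from −0.197 to 0.251. The lists with the largest uninfused medians had medians near 0 at 150 µg/d: male-biased liver genes went from −1.08 without infusion to 0.000187, female-biased ones from 0.835 to 0.0081, and the Cyp2c cytochromes from 0.737 to −0.0379. Single members were spread more widely. The male-biased genes ran from −0.378 (Gstp1) to 2.04 (Moxd1), and the 95% interval lay within a doubling or halving for 3 of 23. The female-biased ones ran from −1.39 (Cyp17a1) to 0.597 (Cyp2c40), with 4 of 19 intervals so, beside the 96.1% of all genes. The carbohydrate response genes had a median of 0.474 without infusion and −0.00579 at 150 µg/d, and the cell cycle genes 0.428 and −0.12, with 3 of 21 higher at 150 µg/d. Conjugating enzymes (−0.128) and carboxylesterases (−0.121) had medians on the same side as without infusion (−0.231 and −0.16). Cyp17a1, a steroid hydroxylase, stood at 22.3, 31.7, 19.3 and 44.7 RPKM in WT and 1.60, 11.3, 13.7 and 31.3 RPKM in Gcg KO libraries. It overlapped through library 22 and did not pass (−1.39, 95% interval −2.51 to −0.26; limma adjusted p = 1), and at 30 µg/d its means were 3.29 and 2.0 RPKM.

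**Figure D5:**
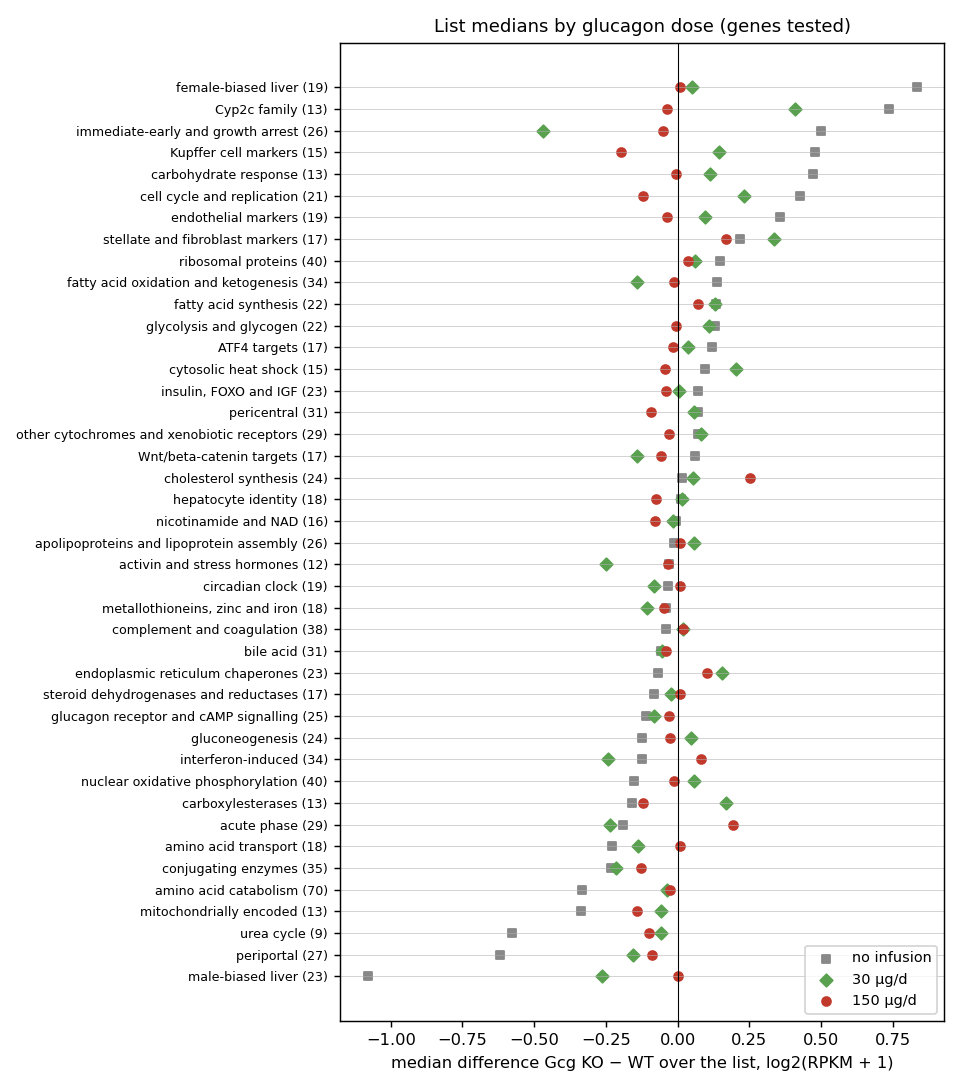
Median difference between genotypes (Gcg KO minus WT, log2(RPKM + 1)) over the tested genes of each list, with their number in brackets, without infusion (grey squares), at 30 µg/d (green diamonds) and at 150 µg/d (red circles). The red circles lie between −0.197 and 0.251, while the grey squares reach −1.08 and 0.835.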

How the data were processed

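Liver polyA RNA was sequenced from strand-specific KAPA libraries, per the labels' protocols. CASAVA 1.8.2, FastQC and the build GRCm38 are from the submitters' processing notes; aligner, counting tool and annotation: not given in the sources used here. The authors deposited RPKM values for 24475 genes, 1 column per library. Reads could be recovered from these for too few genes (64.9 to 73.4% of low values came out whole within 0.1 read, where chance gives 20%), so no count model was used and depths are estimates. Groups came from the titles. Log2(RPKM + 1) was fitted in limma 3.58.1 (R 4.3.3) over all 22 libraries in 6 groups, with a mean-variance trend (16 residual and 3.18 prior degrees of freedom), for the 11590 genes with a mean of at least 0.5 RPKM, and called at a Benjamini-Hochberg adjusted p under 0.05; the code was tested on simulated data. SE values are limma's, SD values are over libraries, and intervals are at 95%.

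The genes named are the called ones, the 10 higher and 10 lower without overlap that had the smallest p (called ones included), the member of each list with the smallest p, those leading the tests of change in gap and the largest uninfused gaps, and a set always reported; not all are printed. Other genes were taken as examples of their list, and Moxd1, Rgs16, muscle genes and genes of differing copies were taken after their values were seen. The members and lists were chosen with earlier results of these data known. Coordinates are RefSeq's on GRCm38 (24375 identifiers matched). Alternatives changed the pseudocount, filter, scaling, weights, the libraries fitted and single libraries.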

Additional observations from a re-analysis of the deposited data

Results flagged for a closer look

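Of 172 sets of 4 library values (86 tested genes named by rule, in 2 groups), 14 had 1 library whose gap to its neighbour, divided by the range of the set, exceeded Dixon's 95% critical value; chance marks about 1 in 20 sets. In Gcg KO liver, library 19 was far below the others for Oat (245 RPKM), Sds (52.9 RPKM) and Gls2 (70 RPKM), and far above them for Pcx, the pyruvate carboxylase (178 RPKM), and Gcgr (92.3 RPKM). Library 20 stood far below for the Kupffer cell marker Csf1r (12.6 RPKM) and far above for Atxn1 (3.96 RPKM) and the cholangiocyte keratin Krt19 (1.35 RPKM). Library 21 was far above for Des (3.51 RPKM), and library 22 for the immediate-early gene Ier5 (1.13 RPKM). In WT liver, library 17 was far below for Ass1 (1240 RPKM) and far above for S100a8, a neutrophil gene (20.9 RPKM), library 16 was far below for Mmd2 (12.3 RPKM), and library 15 far below for the ribosomal protein gene Rpl3 (129 RPKM). Mmd2 without library 16 had a log2 fold change of −2.05 with a limma adjusted p of 0.0551.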

How the results depend on the processing

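No paired analysis was possible because the library numbers in the titles are unique, so no number is shared between the groups. The count of 3 genes called between the genotypes at 150 µg/d, all of them also called without infusion, became 1 in both counts with a pseudocount of 0.1, and 0 with only the compared groups in the fit: the 8 libraries for the former count (smallest limma adjusted p = 0.104) and the uninfused and 150 µg/d groups for the latter (0.0651). The fit of the 30 and 150 µg/d groups called 2 (Robo1 and Zap70). The former was 0 too in the 8 libraries without the trend (chosen after the data were seen, as was leaving out libraries 17 and 19, which gave 0). Leaving out 1 library gave 0 to 4 genes in both counts, 0 to 5 genes for the change in gap from no infusion (5 without library 19) and 0 for the change from 30 µg/d. Library weights gave 66 genes for the former. The counts of 2 with a pseudocount of 0.5, without a filter, with a stricter filter (2 RPKM) or library weights, and of 3 with median-of-ratios scaling, quantile normalization or without libraries 4 and 13, were within 1.5 times. The cause of these changes was not tested. Fits that leave libraries out also rest on fewer libraries, which cannot be told apart from the influence of those left out.

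Signs of some named genes that did not pass turned when 1 library was left out, and their log2 fold changes then ranged as follows: Ass1 −0.45 to 0.23, Atxn1 −0.09 to 0.09, Axin2 −0.14 to 0.0, Bhlhe41 −0.03 to 0.17, Cyp2e1 −0.27 to 0.03, Fabp2 −0.05 to 0.42, Gcgr −0.05 to 0.08, Gls2 −0.55 to 0.11, Glul −0.03 to 0.19, Got1 −1.18 to 0.20, Nags −0.20 to 0.01, Nnmt −0.33 to 0.18, Oat −0.59 to 0.22, Pck1 −0.28 to 0.24, S100a8 −0.71 to 0.35, Sds −0.65 to 0.29, Slc25a48 −0.20 to 0.01 and Tat −0.45 to 0.17. In 10 of these 18 genes leaving out library 19 turned the sign. Without libraries 17 and 19: Fabp2 −0.03, Pck1 −0.20, Pcx −0.01 and S100a8 0.18. With library weights: Gcgr 0.0 and Nnmt 0.0. With quantile normalization: Pck1 −0.04. Depth limits genes near 1 read, worth 0.059 to 0.0877 RPKM for a transcript of 1 kb.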

Other observations

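Genes with a difference of at least 1 on the log2 scale at 150 µg/d, taken after their values were seen, were 14 higher and 12 lower, and Mmd2, Zap70 and Robo1 were the ones called. The highest fold change of all tested genes was that of Moxd1, a monooxygenase-like gene, at 2.04 (limma unadjusted p = 0.226), from 11.3, 2.19, 111 and 1.34 RPKM in WT and 37.8, 16.5, 40.4 and 103 RPKM in Gcg KO libraries. Rgs16, a regulator of G protein signalling, averaged 4.45 and 28.2 RPKM (0.78, 95% interval −1.47 to 3.04).

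Some genes took separate levels within the Gcg KO group. Vapb had 8.20 RPKM in library 19 and 36.3, 34.2 and 37.2 in libraries 20, 21 and 22, with 10.3 to 13.3 in WT. Ndufa11, a subunit of respiratory complex I, had 54.9 and 51.1 RPKM in libraries 20 and 21 and 9.23 and 10.5 in libraries 19 and 22, with 9.14 to 11.9 in WT. Srp54b, which has near-identical copies, had 5.97, 0.370, 2.35 and 0 RPKM in Gcg KO libraries 19 to 22 and 4.09 to 5.97 in WT, so its counts are uncertain. High levels of these genes were not confined to Gcg KO or to 150 µg/d: Ndufa11 stood at 48.1 RPKM in uninfused WT library 2 and Vapb at 43.3 RPKM in WT library 9, given 30 µg/d.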
